A study of Mus musculus with 9 samples.

Results

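The 9 genes of thyroid hormone transport, binding and action described here were measured on 9 microarrays of newborn mouse brain: *Crym*, *Slco1c1*, *Slc16a10*, *Dio2*, *Dio3*, *Thra*, *Thrb*, *Klf9* and *Hr*. They are 9 of the 19938 genes that had a probe set with a single gene symbol, and each was read from 1 probe set. The set was selected by gene symbol with earlier results of these arrays known, and the values it was chosen by are taken to be the differences of KO from WT. Those differences are therefore given for the 9 genes as a description, without a test. The SEs and intervals printed beside them are not adjusted for this choice and are not to be read as tests.

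The arrays hold RNA from uncultured cells of the ventricular zone, the layer of progenitors that lines the brain ventricles, dissected from newborn C57BL/Ka pups. The 3 genotypes were Prdm16LacZ/LacZ (KO), Prdm16LacZ/+ (HET) and Prdm16+/+ (WT), with 3 arrays each and no treatment. Prdm16 encodes a zinc finger regulator of transcription, and the labels name no Cre or tissue that limits the LacZ allele to the brain. Hormone in blood or brain was not part of the values used here. Separate animals or pools are not named for the arrays of a genotype. The log2 level of *Xist*, a transcript of female cells, was 4.421, 10.497 and 11.002 in KO. It was 10.735, 4.638 and 4.989 in HET, and 10.035, 4.436 and 4.701 in WT. The arrays of a genotype were therefore not all repeats of a single RNA sample. More KO arrays than HET or WT arrays had the high level, so sex was not balanced between genotypes. A p-value here covers array-to-array spread, some of which may be technical.

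Thyroid hormone reaches the brain mainly as thyroxine, which membrane carriers take across the blood-brain barrier and into glia. Deiodinases then turn it into the active triiodothyronine or into inactive products, and nuclear receptors that sit on DNA with or without the hormone switch their target genes on or off. In the developing brain this system is known for timing the maturation of neurons and glia.

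All values are log2 probe set intensities, and differences are on the log2 scale unless given as folds. The median of an array was between 5.80 and 5.92, and its lower quartile between 4.53 and 4.68. *Prdm16* itself lay between 5.69 and 6.41 in KO, between 6.995 and 7.34 in HET and between 7.23 and 7.62 in WT. All 10 radial glia markers lay above the lower quartile on every array, as did 11 of 12 astrocyte and 11 of 12 endothelial markers. Most probe sets lie above that level by its definition, so these counts do not show which cell types were present. HET replicate 1 stood nearer to the arrays of both other genotypes than to its own. Across probe sets it correlated at r between 0.9946 and 0.9954 with the WT arrays. With the KO arrays r was between 0.9914 and 0.9935, and with the other HET arrays between 0.9893 and 0.9913. Results on HET are therefore also given without it.

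*Slco1c1* encodes a membrane carrier with high affinity for thyroxine, known in rodents from brain endothelium, choroid plexus and astrocytes. It lay at 8.94, 8.44 and 8.75 in KO, at 9.68, 9.47 and 9.01 in HET, and at 10.04, 9.91 and 9.70 in WT. Each KO array lay below each HET array, and each HET array below each WT array, although HET replicate 1 and WT replicate 3 were almost level. The mean was 8.71 ± 0.253 in KO, 9.39 ± 0.345 in HET and 9.88 ± 0.173 in WT (SD, n = 3). KO was 2.26-fold below WT, a log2 difference of -1.17 (SE 0.178, 95% interval -1.57 to -0.78).

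The DNA just upstream of the start of *Slco1c1* is shown because, of the genes with a window in the table, it had the largest KO against WT difference. The 250 bases before the RefSeq start (GRCm38.p6, chr6:141524104-141524353, plus strand) are all in lower case because no receptor half-site was found in them.
Slco1c1: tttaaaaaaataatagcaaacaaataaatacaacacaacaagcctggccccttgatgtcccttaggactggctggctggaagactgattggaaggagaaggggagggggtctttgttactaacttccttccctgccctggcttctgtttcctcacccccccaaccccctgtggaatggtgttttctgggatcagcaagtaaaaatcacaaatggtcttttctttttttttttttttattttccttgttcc

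*Crym* encodes mu-crystallin, a cytosolic protein that binds triiodothyronine and also acts as a ketimine reductase in lysine breakdown. It had values of 6.28, 6.59 and 6.41 in KO, 7.52, 7.60 and 7.52 in HET, and 7.85, 8.68 and 7.73 in WT. KO, HET and WT again formed separate steps with no overlap, and WT replicate 2 stood well above the other WT arrays. The mean was 6.42 ± 0.154 in KO, 7.54 ± 0.0486 in HET and 8.09 ± 0.52 in WT (SD, n = 3). KO was 3.16-fold below WT, a log2 difference of -1.66 (SE 0.206, 95% interval -2.12 to -1.20), and -1.36 without WT replicate 2.

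No call is given for the 9 genes in KO against WT, since this contrast was known when the set was selected. As background for the other genes below, limma with Benjamini-Hochberg adjusted p under 0.05 called 0.451% of all genes in KO against WT, 0.286% lower and 0.166% higher, and 6.15% had an unadjusted p under 0.05. When any 1 array was left out, the difference of *Crym* stayed between -1.84 and -1.36 and that of *Slco1c1* between -1.29 and -1.04. Over all genes, 0.145% had KO, HET and WT arrays in the same full order as these 2 genes, with KO lowest. Part of that order, KO below WT, was known when the set was selected. The share therefore does not measure how unusual the order is for these 2 genes.

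**Figure D1:**
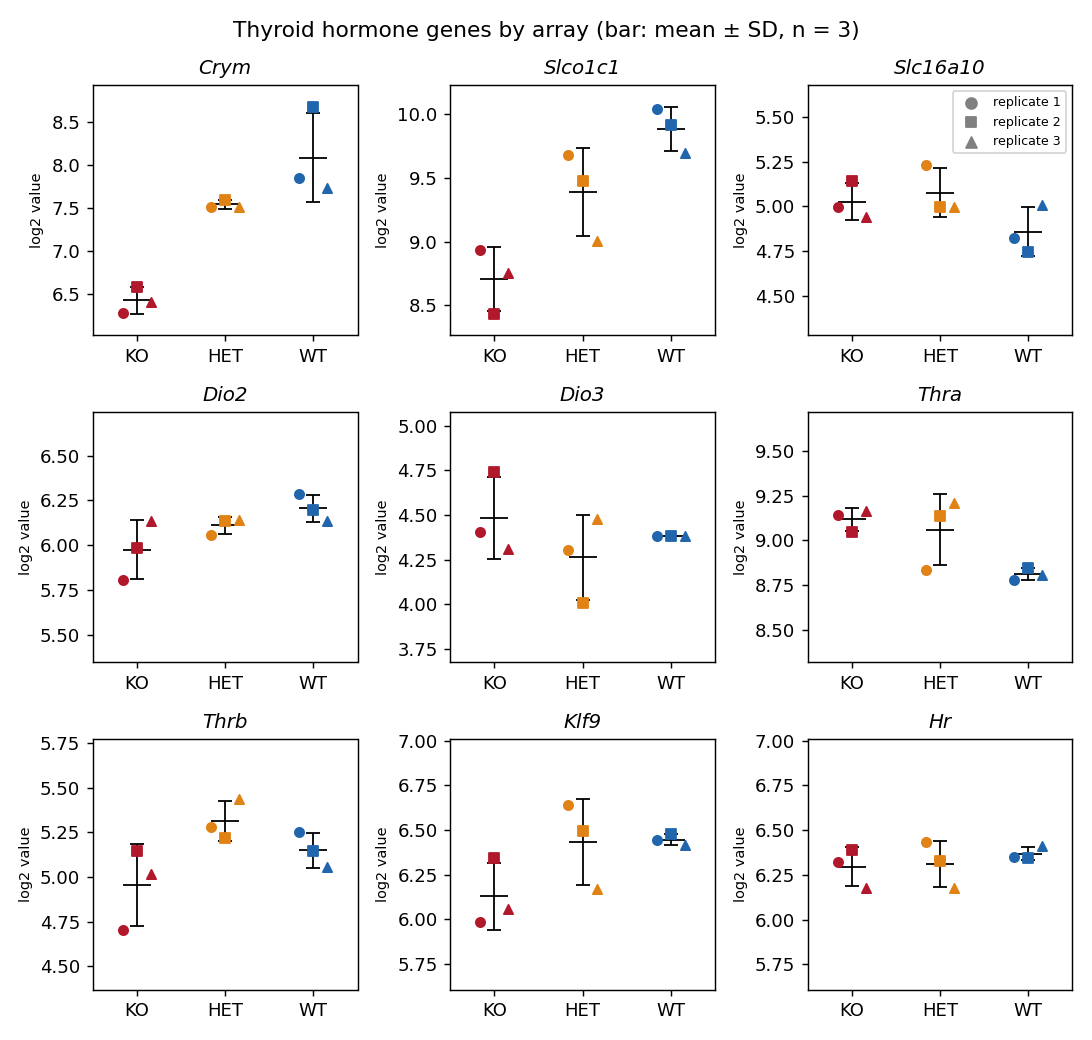
Log2 value of the 9 genes (vertical axis, own range in each panel) in KO, HET and WT arrays; symbols mark the replicate number, and bars give the mean ± SD of 3 arrays. Crym and Slco1c1 fall in 3 separate steps, with KO means of 6.42 and 8.71 against WT means of 8.09 and 9.88, while the KO mean of Thra, 9.12, is above its WT mean of 8.81.

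*Slc16a10*, a carrier of aromatic amino acids that also moves thyroid hormone, did not follow *Slco1c1*. It lay at 5.00, 5.14 and 4.94 in KO, at 5.23, 5.00 and 5.00 in HET, and at 4.82, 4.75 and 5.01 in WT. The genotypes overlapped, and all 9 values were below the array median. The difference was 0.17 in KO against WT (SE 0.101, 95% interval -0.057 to 0.39), or 0.11 without KO replicate 2 and 0.11 without WT replicate 2.

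The deiodinases are selenoenzymes with opposite effects. *Dio2*, which makes the active hormone and is known in brain from astrocytes and tanycytes, had 5.80, 5.99 and 6.14 in KO, 6.06, 6.14 and 6.14 in HET, and 6.28, 6.20 and 6.14 in WT. The KO and WT groups met at 6.14, with a difference of -0.23 (SE 0.0932, 95% interval -0.44 to -0.025), or -0.15 without KO replicate 1. *Dio3*, which inactivates the hormone and is paternally expressed from an imprinted locus, had 4.40, 4.74 and 4.31 in KO, 4.30, 4.01 and 4.48 in HET, and 4.38 in each of the WT arrays. It lay below the lower quartile on 8 of 9 arrays, so a change could go unseen, and its KO against WT difference was 0.10 (SE 0.134), with the sign turned (-0.0255) without KO replicate 2.

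The 3 WT values of *Dio3* were identical to the last digit deposited, giving a WT SD of 0. Repeats of this kind were common in the table: 62.9% of genes had at least 1 value repeated exactly on another array, and 3.42% had the same value on all WT arrays. *Crym* shared 1 value between HET replicates 1 and 3, *Thrb* 1 value between KO replicate 2 and WT replicate 2, and *Dio2* and *Slc16a10* each shared 1 value among 3 arrays. SDs of these genes are therefore partly set by repeated values, whose source was not tested.

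The receptors moved less than the carrier *Slco1c1* and the binding protein *Crym*. *Thra*, the main thyroid hormone receptor gene of the fetal and newborn brain, had 9.14, 9.04 and 9.16 in KO, 8.83, 9.14 and 9.21 in HET, and 8.78, 8.84 and 8.81 in WT. Every KO array was above every WT array, with a difference of 0.31 (SE 0.0991, 95% interval 0.088 to 0.53), while HET replicate 1 lay among the WT arrays. KO and WT arrays did not overlap for *Thra*, *Crym*, *Slco1c1* and *Klf9*, and for 9.98% of all genes, 4.34% lower and 5.63% higher in KO. This contrast was known when the set was selected. The 3' end of *Thra* overlaps the opposite-strand gene *Nr1d1*, and the position of the probes was not used here.

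*Thrb*, the receptor gene whose expression rises later in brain development, had 4.70, 5.14 and 5.02 in KO, 5.28, 5.22 and 5.44 in HET, and 5.25, 5.14 and 5.05 in WT. KO and WT overlapped, with a difference of -0.19 (SE 0.117, 95% interval -0.45 to 0.065), or -0.068 without KO replicate 1, and HET had the highest mean. *Thrb* was below the array median on all 9 arrays. One of its 2 RefSeq windows is shown because, of the 7 windows found for 6 of the 9 genes, it was the one that held the receptor half-site AGGTCA (capitals; GRCm38.p6, chr14:17660710-17660959, plus strand).
Thrb: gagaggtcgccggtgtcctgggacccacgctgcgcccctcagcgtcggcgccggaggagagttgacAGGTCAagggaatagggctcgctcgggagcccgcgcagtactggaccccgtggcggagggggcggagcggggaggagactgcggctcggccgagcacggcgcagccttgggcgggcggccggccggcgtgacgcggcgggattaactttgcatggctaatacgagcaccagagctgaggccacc

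The half-site was searched on both strands, as AGGTCA or TGACCT, in the 250 bases before each start. It occurred in 1 of the 7 windows, and in 14.0% of 32841 windows of the same length over all genes. A direct repeat of the half-site with 4 bases between the copies, a classical site of these receptors, was in 0 of the 7 and in 0.0152% of all. These letters describe the windows alone, and receptor sites often lie outside such windows. *Crym*, *Thra* and *Hr* had no window in the table.

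Genes that answer to the hormone gave small differences. *Klf9*, a zinc finger regulator induced by triiodothyronine in rodent brain, had 5.99, 6.34 and 6.06 in KO, 6.64, 6.49 and 6.17 in HET, and 6.45, 6.48 and 6.41 in WT. Its KO arrays were all below its WT arrays, a difference of -0.32 (SE 0.128, 95% interval -0.60 to -0.034), while HET replicate 3 fell within the KO range. *Hr*, the corepressor hairless, which is itself induced by the hormone in rodent brain, had 6.32, 6.39 and 6.18 in KO, 6.43, 6.33 and 6.18 in HET, and 6.35, 6.34 and 6.41 in WT. *Hr* stayed between 6.18 and 6.43 on all 9 arrays and differed by -0.073 between KO and WT (SE 0.0893), with -0.12 without KO replicate 2 and -0.0125 without KO replicate 3.

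The comparison of HET with WT asks what the loss of 1 allele does, and it shares its WT arrays with the comparison of KO with WT. Genes chosen for a high WT level would tend to lie lower in HET as well, so its p-values are not independent of the choice of genes. By limma with Benjamini-Hochberg adjustment, 0 of the 9 genes were called, against 0% of all genes, and 3 of the 9 had an unadjusted p under 0.05, against 4.05% of all genes. These 3 were *Crym*, *Slco1c1* and *Thra*. *Crym* differed by -0.54 (SE 0.206, 95% interval -1.0004 to -0.087, adjusted p = 0.993) and was lower in 3 of 3 HET arrays than in any WT array. The difference was -0.53 without HET replicate 1 (adjusted p = 0.462) and -0.25 without WT replicate 2, the highest array.

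*Slco1c1* differed by -0.50 in HET against WT (SE 0.178, 95% interval -0.89 to -0.10, adjusted p = 0.993), or -0.64 without HET replicate 1 (adjusted p = 0.227). It was -0.31 without HET replicate 3, so the size depended on single arrays. *Thra* differed by 0.25 (SE 0.0991, adjusted p = 0.993), or 0.36 without HET replicate 1 (adjusted p = 0.158). Arrays of HET and WT did not overlap for *Crym* and *Slco1c1*, and for 6.85% of all genes, 3.1% lower and 3.75% higher in HET. The other 6 genes lay between -0.12 for *Dio3* and 0.22 for *Slc16a10* (adjusted p between 0.993 and 0.998). Without HET replicate 1 these 6 lay between -0.14 for *Dio3* and 0.18 for *Thrb*, with *Slc16a10* at 0.14, *Klf9* at -0.12 and *Hr* at -0.12.

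The comparison of KO with HET asks what the remaining allele does, and it shares its KO arrays with the comparison of KO with WT. Genes chosen for a low KO level would tend to lie below HET as well, so these p-values, too, depend on the choice of genes. Of the 9 genes 0 were called by limma with Benjamini-Hochberg adjustment, against 0.206% of all genes, 0.0451% higher and 0.16% lower. These were 9 higher and 32 lower genes, while quantile normalization gave 16 and 32, and median centring 7 and 14. An unadjusted p under 0.05 was found for 4 of the 9, and for 6.16% of all genes. *Crym* differed by -1.12 (SE 0.206, 95% interval -1.58 to -0.66, adjusted p = 0.0941), or -1.13 without HET replicate 1 (adjusted p = 0.11). It passed without WT replicate 2 (adjusted p = 0.00363) and with only the KO and HET arrays in the fit (adjusted p = 0.0228), and the adjusted p lay between 0.0574 and 0.411 in the other settings. Leaving out WT replicate 2 kept the difference at -1.12 and changed the spread estimated over all arrays.

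*Slco1c1* differed by -0.68 in KO against HET (SE 0.178, 95% interval -1.07 to -0.28, adjusted p = 0.376), by -0.53 without HET replicate 1, and by -0.40 without it and KO replicate 2 (adjusted p between 0.125 and 0.939 over the settings). *Thrb* differed by -0.36 (SE 0.117, 95% interval -0.62 to -0.097, adjusted p = 0.583), or -0.23 without KO replicate 1 and -0.37 without HET replicate 1. Every KO array was below every HET array for *Crym*, *Slco1c1* and *Thrb*, and KO and HET did not overlap for 6.54% of all genes, 3.09% lower and 3.45% higher in KO. *Klf9* differed by -0.30 (SE 0.128, adjusted p = 0.776), or -0.20 without HET replicate 1. *Thra*, by contrast, was almost level between KO and HET, at 0.057 (SE 0.0991, 95% interval -0.16 to 0.28, adjusted p = 0.955), and -0.055 without HET replicate 1.

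Where HET lay between the other genotypes was tested against the midpoint of KO and WT. This contrast is independent of the difference between KO and WT if KO and WT have equal spread. The SD of *Crym* was 0.154 in KO and 0.52 in WT, so this may not hold for *Crym*. Taken over all genes, spread was typically wider in KO (median 0.13) and HET (0.117) than in WT (0.0769). All of the 9 genes but *Crym* and *Slc16a10* had the larger SD in KO. *Klf9* had 0.189 in KO and 0.0317 in WT, and *Thrb* 0.227 and 0.0983. Independence is therefore in doubt beyond *Crym*. The fit of all arrays also shares 1 spread between genotypes, in KO against HET as well. The HET mean of *Crym* was 32.7% of the way from WT to KO and that of *Slco1c1* 42.2%. *Crym* stood 0.29 above the midpoint (SE 0.178, 95% interval -0.11 to 0.68, adjusted p = 0.935) and *Slco1c1* 0.091 above it (SE 0.154, 95% interval -0.25 to 0.43, adjusted p = 0.971). Both intervals include 0, so neither gene was shown to depart from a level midway. Without HET replicate 1 *Crym* stood at 0.30 and *Slco1c1* changed sign to -0.056, and *Slco1c1* also turned negative under weighting of the arrays (-0.057) or when KO replicate 2 was left out together with HET replicate 1 (-0.12). The position of *Crym* rested in part on WT replicate 2, without which it stood 0.44 above the midpoint. By limma 0 of the 9 genes passed, against 0% of all genes, and 1 of the 9, *Thrb*, had an unadjusted p under 0.05, against 4.77% of all genes. *Thrb* lay 0.26 above the midpoint (SE 0.101, adjusted p = 0.935), or 0.27 without HET replicate 1.

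**Figure D2:**
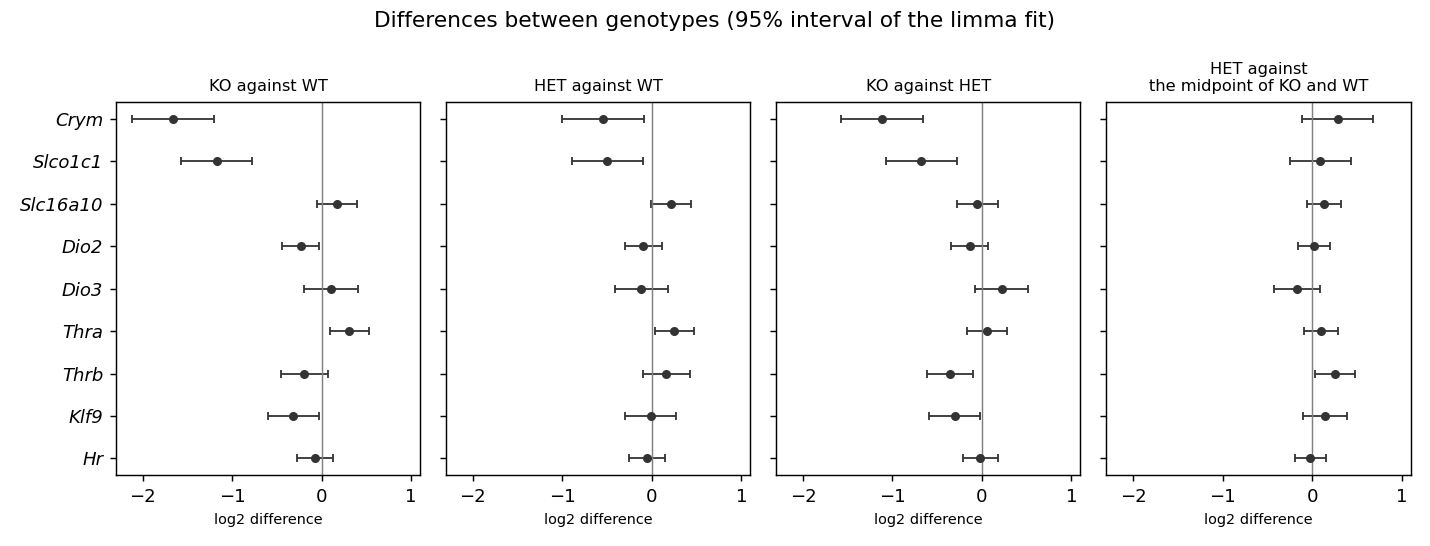
Log2 difference between genotypes (horizontal axis) for the 9 genes in the 4 contrasts. Points are limma estimates from all 9 arrays and bars their 95% intervals, not adjusted for the choice of genes. Crym and Slco1c1 stand apart on the left in KO against WT (-1.66 and -1.17) and KO against HET (-1.12 and -0.68), and the intervals of both reach 0 in HET against the midpoint.

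Over the 9 arrays, *Crym* and *Slco1c1* correlated at r = 0.84 and rho = 0.89, and at r = 0.88 without the 2 arrays farthest from the *Crym* median. Over deviations from each genotype's mean, r was -0.044. This value rests largely on the WT arrays, where the SD of *Crym* was 0.52, against 0.154 in KO and 0.0486 in HET. The arrays share genotype and normalization, and the values are descriptions over 9 points. *Klf9* had r = 0.71 with *Crym*, *Dio2* 0.71 and *Thra* -0.63.

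Among 356 named genes at or above the median level and with a range of at least 1 over arrays, those most like *Crym* were *Pdk4* (r = 0.948), the kinase that restrains pyruvate dehydrogenase, *Plpp3* (0.942), a lipid phosphatase, *Prdm16* itself (0.932), *Fxyd1* (0.93), a small partner of the sodium pump, *Ogn* (0.928), a small proteoglycan, and *Car8* (0.927), a carbonic anhydrase relative. Within genotypes these 6 had r between 0.46 for *Prdm16* and 0.76 for *Car8*. The most opposed were the pentraxin *Ptx3* (r = -0.939), the cadherin *Fat4* (-0.91) and the cytokine receptor *Lifr* (-0.905). *Slco1c1*, at 0.84, was not among the 6 nearest genes.

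Around the 9 genes, the rest of the pathway was described from lists of textbook members. Of 10 other measured carriers, 0 were called in KO against WT in either direction by limma, and 1 had an unadjusted p under 0.05; the median difference was 0.029, against 0.0064 over all genes. *Slco1a4*, a relative of *Slco1c1* at the rodent blood-brain barrier, lay at -0.27 (SE 0.0987, adjusted p = 0.641), below the lower quartile on all 9 arrays. *Slc7a5* and *Slc3a2*, the subunits of an amino acid exchanger that also carries the hormone, lay at 0.13 (SE 0.0921) and 0.14 (SE 0.113).

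Of 9 genes of hormone binding and metabolism, 0 were called by limma and 1 had an unadjusted p under 0.05, with a median of -0.079. That gene was *Sephs2*, which makes the selenium donor that deiodinases need, at 0.34 (SE 0.124, adjusted p = 0.642). *Sult1a1*, a sulfotransferase, lay at -0.26 (SE 0.119) and *Dio1*, the deiodinase of liver and thyroid, at 0.16 (SE 0.0727). Of 14 receptor partners and coregulators 0 were called and 0 had an unadjusted p under 0.05, although 10 lay above 0 with a median of 0.13. The coactivators *Ncoa1*, *Ncoa2* and *Ncoa3* lay at -0.25 (SE 0.116), 0.20 (SE 0.0946) and 0.20 (SE 0.111).

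Of 21 other genes known to be regulated by the hormone, 1 was called lower and 0 higher in KO against WT, with a median of -0.053. The calls are by limma with Benjamini-Hochberg adjustment over all genes, of which 0.286% were called lower and 0.166% higher. An unadjusted p under 0.05 was found for 3 lower genes and 1 higher gene of the 21, against 6.15% of all genes in either direction. The called gene was *Me1*, cytosolic malic enzyme, a classical hormone target of rodent liver that supplies reducing power for lipid synthesis. *Me1* had 6.57, 6.17 and 6.36 in KO, 7.03, 7.10 and 7.05 in HET, and 7.02, 6.95 and 6.87 in WT. Every KO array lay below every WT array, as for 4.34% of all genes, and below every HET array, as for 3.09%. Every HET array lay above every WT array, as for 3.75% of all genes. The difference of *Me1* in HET against WT was small, at 0.11 (SE 0.1, limma adjusted p = 0.993). *Me1* differed by -0.58 from WT (SE 0.1, adjusted p = 0.0403) and by -0.69 from HET (SE 0.1, adjusted p = 0.03).

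The KO against WT call of *Me1* stood in 6 of 20 alternative settings and was lost without any 1 array but KO replicate 1, with adjusted p up to 0.232. Against HET its call was lost in 14 of 20 settings, among them the replicate block (adjusted p = 0.0682), median centring (0.07) and each WT array left out, with adjusted p up to 0.204. Without HET replicate 1 it stood (-0.71, adjusted p = 0.0484). *Thrsp*, another lipid synthesis target known from rodent liver, lay at -0.35 (SE 0.137, adjusted p = 0.711). *Nefm*, a neurofilament gene, lay at 0.44 (SE 0.113, adjusted p = 0.247).

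Neither of the remaining lists held a call by limma in KO against WT, or a gene with an unadjusted p under 0.05. The 9 genes of the thyroid axis and gland had a median of -0.026, with *Tshr*, the thyrotropin receptor, at -0.32 (SE 0.146), *Tshb* at -0.20 (SE 0.135) and *Cga*, the shared alpha subunit of pituitary hormones, at -0.067 (SE 0.0845), below the lower quartile on all 9 arrays. The 7 genes of lysine breakdown, the pathway of the reductase activity of *Crym*, had a median of -0.038, with *Gcdh* at 0.19 (SE 0.103), *Aldh7a1* at -0.14 (SE 0.101) and *Phykpl* at 0.091 (SE 0.108).

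**Figure D3:**
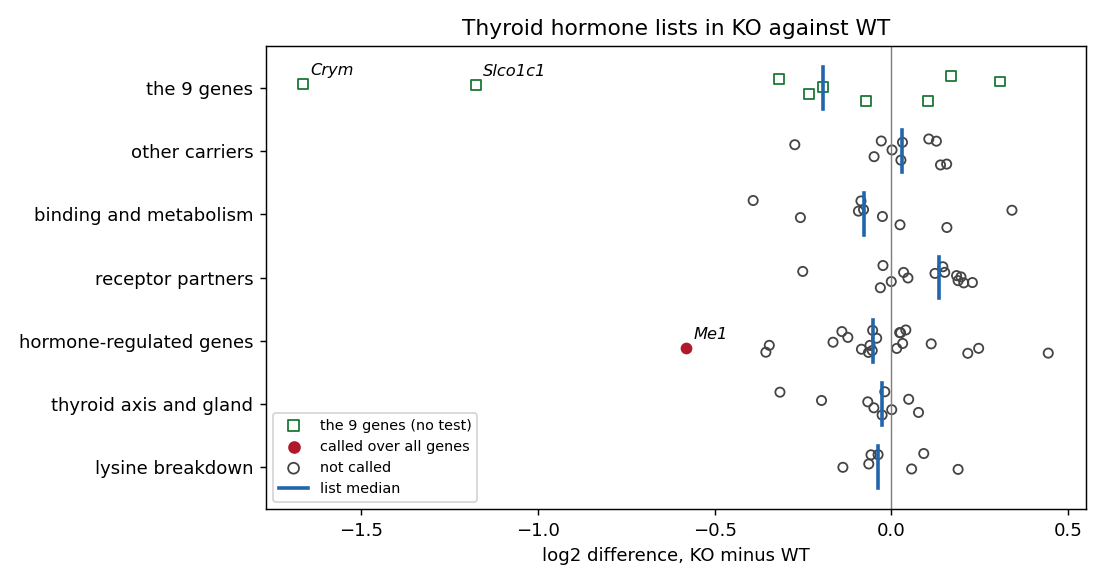
Log2 difference of KO minus WT (horizontal axis) for each measured gene of the 9-gene set and 6 related lists; squares are the 9 genes, for which no test is given, filled circles passed the test over all genes, and vertical strokes are list medians (0.029 for other carriers, 0.13 for receptor partners). Crym (-1.66) and Slco1c1 (-1.17) are the squares farthest left, known when the set was selected, and Me1 (-0.58) is the 1 filled circle.

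Markers of cell types that could carry these genes moved in part with them. In bulk RNA, fewer cells of a type and less RNA per cell cannot be told apart. Of 12 astrocyte markers 3 fell in KO against WT by limma, *Apoe*, *Clu* and *Aqp4*, where 0.286% of all genes were called lower, and 9 lay below 0, with a median of -0.46. An unadjusted p under 0.05 was found for 7 of the 12, all of them lower, against 6.15% of all genes. The 3 that lay above 0 were *Aldh1l1* at 0.21, *Fgfr3* at 0.066 and *S100b* at 0.055, none of them called, so not every marker fell. The summed astrocyte level, as log2, ranged between 11.70 and 11.76 in KO, between 11.97 and 12.35 in HET and between 12.02 and 12.26 in WT. Of 10 ependymal markers 0 were called, 5 had an unadjusted p under 0.05, against 6.15% of all genes, and 10 lay below 0, with sums between 8.47 and 8.73 in KO, between 8.92 and 9.21 in HET and between 9.12 and 9.20 in WT. Of 10 radial glia markers 0 were called, but 4 had an unadjusted p under 0.05 and all of these were lower, with *Prom1* at -0.57 (SE 0.163, adjusted p = 0.372), *Lhx2* at -0.42, *Pax6* at -0.41 and *Ptprz1* at -0.30. The radial glia sums lay between 13.01 and 13.16 in KO, between 13.01 and 13.42 in HET and between 13.09 and 13.31 in WT. Of 7 meningeal markers 1 fell, *Ogn*, at -1.37 (SE 0.187, adjusted p = 0.012), and the other 6 were not called. The part of these cells in the lower *Crym*, *Slco1c1* and *Me1* was not tested.

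Endothelial markers overlapped between genotypes, with sums between 10.02 and 10.20 in KO, between 9.96 and 10.18 in HET and between 10.10 and 10.17 in WT. Of 12, 0 were called by limma and 1 had an unadjusted p under 0.05, *Mfsd2a*, a lipid carrier of the barrier, at -0.56 (SE 0.127, adjusted p = 0.152). Choroid plexus sums lay between 9.33 and 9.46 in KO, between 9.14 and 9.77 in HET and between 9.37 and 9.43 in WT. Of its 11 markers 1 rose, the clotting factor gene *F5*, at 0.89 (adjusted p = 0.00512) and below the lower quartile on 6 of 9 arrays, and *Ttr*, which carries thyroxine in the cerebrospinal fluid, lay at -0.39 (SE 0.525). Of 6 tanycyte markers, 2 lay above the lower quartile on every array, and of 6 tested 0 were called and 0 had an unadjusted p under 0.05.

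Neuronal lists that could bear on *Crym*, which is known from striatal and deep-layer cortical neurons, had 0 calls by limma. Striatal markers summed to between 9.75 and 10.20 in KO, between 10.03 and 10.85 in HET and between 10.19 and 10.22 in WT, and 0 of 8 had an unadjusted p under 0.05. Deep-layer markers summed to between 9.99 and 10.07 in KO, between 9.94 and 10.32 in HET and between 10.02 and 10.13 in WT. In that list 2 of 6 had an unadjusted p under 0.05, the cortical regulators *Tbr1* at -0.66 (SE 0.132, adjusted p = 0.0771) and *Sox5* at -0.40 (SE 0.143, adjusted p = 0.638).

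**Figure D4:**
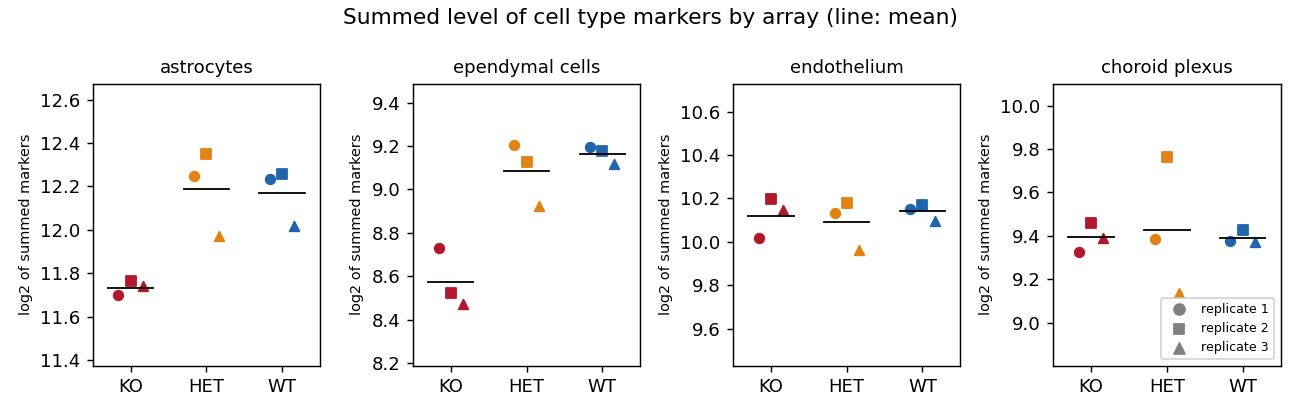
Log2 of the summed linear intensity of 4 marker lists (vertical axis) on each array, by genotype; lines are means and symbols mark the replicate number. The KO arrays are lowest for astrocyte (11.70 to 11.76) and ependymal markers (8.47 to 8.73), while endothelial and choroid plexus sums overlap between genotypes.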

How the data were processed

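Total RNA of the 9 arrays was amplified with NuGEN kits for whole transcripts, biotin-labelled and measured on Affymetrix whole-transcript mouse arrays, per the labels' protocols. The deposited table held 28940 probe sets as log2 intensities; RMA, affy and limma are named, without versions, in the submitters' processing notes. RMA subtracts background and equalises the arrays' distributions, so differences are relative to each array's distribution. No genome build for the probe sets was found there. Of the probe sets, 21789 had 1 gene symbol in the platform annotation, and the 1621 that listed several and the 5530 that listed none were not used. For 999 genes with more than 1 probe set the one with the highest mean was taken; each of the 9 genes had 1.

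Group means of all 9 arrays were fitted in 1 model with limma 3.58.1 (lmFit, eBayes, two-sided) in R 4.3.3, without filter, and p-values were adjusted over 19938 genes by the Benjamini-Hochberg method; a call is an adjusted p under 0.05. The fit was checked on simulated data. The 9 genes and all lists were chosen with earlier results of these data known. In each pathway list, the 3 genes lowest in unadjusted p (KO against WT) are named. *Apoe*, *Clu*, *Aqp4*, *Aldh1l1*, *Fgfr3*, *S100b*, *F5*, *Mfsd2a*, *Ttr*, *Prom1*, *Lhx2*, *Pax6*, *Ptprz1*, *Ogn*, *Tbr1* and *Sox5* were named after their values were seen. Genes like *Crym* were ranked by Pearson's r over the 9 arrays. Promoter windows are from RefSeq (GRCm38.p6). With 3 arrays per genotype, the number of arrays limits the precision. The settings varied were a replicate block, a fit of the compared groups alone, trend and robust moderation, weights per array, removal of the dimmest 1 in 3 genes, probe sets averaged or all tested, quantile normalization, median centring, the Xist level as a covariate, an adjusted p under 0.10 and arrays left out.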

Additional observations from a re-analysis of the deposited data

How the results depend on the processing

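Genes called over all genes in KO against WT numbered 90, and 33 with only the compared arrays, 151 with array weights, 50 without HET replicate 1 and KO replicate 2 together, and 23 to 77 when 1 array was left out. In KO against HET they numbered 41, and 19 with the replicate block, 8 with only the compared arrays, 26 with every probe set tested, 21 with median centring, 24 with the Xist covariate, and 12 to 75 with 1 array left out. In HET against the midpoint the count was 0, and 1 at an adjusted p under 0.10, with array weights or with quantile normalization, 2 without HET replicate 1 and KO replicate 2 together, and 0 to 3 with 1 array left out. HET against WT gave 0 in all settings run.

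The replicate numbers did not pair the arrays: of 9 same-numbered pairs, 0 had deviations from genotype means that correlated above 0.1 (r between -0.336 and 0.0555), and 0 of 9 arrays correlated best with its own number. With the replicate block, KO against WT had 72 calls, and *Me1* was not among them (adjusted p = 0.0796). The differences of *Crym* and *Slco1c1* kept their sign in KO against WT, HET against WT and KO against HET in every setting run. Leaving out arrays could not turn these signs, because the groups did not overlap for these genes. Several other settings left the difference itself unchanged, so the kept sign adds no separate support.

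Uncalled differences near 0 changed sign in some settings. In KO against WT, *Dio3* was -0.0255 without KO replicate 2, alone or with HET replicate 1. In HET against WT, *Dio3* lay between -0.22 and 0.010 with 1 array left out, *Hr* was 0.012 without HET replicate 3, and *Klf9* was 0.0012 with median centring, 0.12 without HET replicate 3 and 0.003 without WT replicate 2. In KO against HET, *Slc16a10* lay between -0.11 and 0.029 with 1 array left out, *Thra* between -0.055 and 0.13, and *Hr* between -0.085 and 0.043; *Thra* was -0.019 without HET replicate 1 and KO replicate 2, and *Hr* 0.012 with array weights. Against the midpoint, *Slco1c1* was -0.057 with array weights, -0.12 without HET replicate 1 and KO replicate 2, and between -0.056 and 0.28 with 1 array left out; *Dio2* lay between -0.023 and 0.060 and *Hr* between -0.079 and 0.0485. The causes were not tested. *Slc16a10*, *Dio3* and *Thrb* dropped out with the dimmest 1 in 3 genes, and a fit of the compared groups alone could not be made for the midpoint.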
